A study of Mus musculus with 9 samples.

Results

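The genes described are 9 cytosolic heat shock chaperones, Hsp90aa1, Hsp90ab1, Hspa1a, Hspa1b, Hspa8, Hspb1, Hsph1, Dnaja1 and Dnajb1, with Hsf1, the transcription factor of the heat shock response. They were chosen by name and not by a filter on their values, though with earlier results of these data known. They are 10 of 61473 features listed in the expression table. Liver RNA of NSG mice, an immunodeficient strain, was sequenced after 5 weeks of tail vein injections. The groups were MDA-MB-231 EV (extracellular vesicles of a human triple-negative breast cancer line), MCF-10A EV (vesicles of a human breast epithelial line that forms no tumours) and PBS (phosphate-buffered saline), with 3 libraries each. The genotype label was WT in all 9 libraries, and the sources used here give neither age nor sex. The series title places the study in vesicle miR-9-5p and the cholesterol balance of the host, so the chaperones were not its stated subject. The labels do not say that each sample came from a separate mouse, so a p-value here covers the spread between samples, which may be technical.

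Heat shock chaperones bind unfolded or unstable proteins in the cytosol. HSP70 proteins take up exposed segments in a cycle driven by ATP, J-domain proteins deliver clients and start ATP hydrolysis, HSP110 proteins exchange the nucleotide, HSP90 acts on kinases and steroid receptors at a later stage, and small heat shock proteins hold clients without ATP. In stressed cells HSF1 forms trimers that bind heat shock elements, arrays of inverted nGAAn units, and the inducible genes are transcribed strongly, while Hspa8 and Hsp90ab1 are abundant in unstressed tissue.

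Inducible heat shock genes are known to be regulated through heat shock elements, so the members' promoter windows were searched for their units. The stretches shown hold paired units only, which are shorter than such an array. Promoter windows of RefSeq (GRCm38.p6) were found for 6 of the 10 genes, Hspa1a, Hspa1b, Hspb1, Hsph1, Dnaja1 and Dnajb1. In the 250 bases before each start, 2 forms of paired units were searched, TTCNNGAA and GAANNTTC, each of which reads the same on both strands. Hspa1a and Hspa1b held 1 GAANNTTC each, beginning at base -104. Hspb1 held 2, at bases -117 and -97. Hsph1 held 1 TTCNNGAA, at base -33 or -54 of its 2 annotated starts, and Dnaja1 held 1 GAANNTTC, at base -124 of the first of its 3 windows. These positions are relative to RefSeq starts. By the gene coordinates given below (GENCODE M21), the Hsph1 and Dnaja1 matches lie inside the gene, after its outermost start. In the stretches, written 5′ to 3′ on the gene's strand, capitals mark the TTC and GAA units of these matches.
Hspa1b, chr17:34959324-34959353, minus strand: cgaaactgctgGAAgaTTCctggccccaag
Hspa1a, chr17:34972242-34972271, minus strand: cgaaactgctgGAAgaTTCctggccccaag
Hspb1, chr5:135887801-135887830, plus strand: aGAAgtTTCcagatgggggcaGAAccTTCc
Hsph1, chr5:149636351-149636380, minus strand: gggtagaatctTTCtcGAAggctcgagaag
Dnaja1, chr4:40722333-40722362, plus strand: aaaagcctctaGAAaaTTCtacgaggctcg
The Hspa1a and Hspa1b stretches are identical, and their whole 250-base promoters matched at 247 bases (98.8%) and differed at 3. TTCNNGAA was in 7.17% and GAANNTTC in 6.69% of all 32851 promoter windows of that length. The stricter array of 3 alternating units, TTCNNGAANNTTC or its reverse complement, was in 0.466% of windows and in none of the members' windows. No member window held TATAAA, the TATA box, on the sense strand, against 7.59% of all windows, and neither paired form was in the windows of Dnajb1. A match is a description of letters and not a measured binding site. The build of these coordinates differs from the build named by the submitters, GRCm39.

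Each library is given as TPM, transcript abundance divided by transcript length and scaled to a total, so levels can be set beside each other across genes. The total was 1000000 TPM in the MDA-MB-231 EV and PBS libraries, but 979351, 946777 and 934986 TPM in the MCF-10A EV libraries. Loci assembled from the reads were at 0% there, against 1.21% to 5.70% in the other groups. A difference of processing and one of group therefore cannot be told apart in comparisons with MCF-10A EV. TPM keeps no read depth, and the depth of each library is unknown. All 9 markers of hepatocytes were detected in every library and summed to between 39759 and 108800 TPM. Some libraries stood apart. Xist was at 273 TPM in MDA-MB-231 EV 3 and 320 TPM in PBS 1, and between 7.11 and 74.9 TPM in the other 7. The mitochondrially encoded share of TPM was lowest in MDA-MB-231 EV 2 (4.96%) and highest in PBS 1 (26.3%). In MCF-10A EV 1 the neutrophil markers summed to 5436 TPM, against at most 221 TPM in any other library, and the erythroid markers to 16025 TPM. Because these are bulk samples, fewer cells of a type and less RNA per cell cannot be told apart.

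Hsp90aa1 (ENSMUSG00000021270, GRCm38 chr12:110690605-110702728), the stress-inducible HSP90, gave the strongest single difference among the 10 genes, and it was between the vesicle groups. It was at 19.25, 48.82 and 23.18 TPM in MDA-MB-231 EV livers, at 47.33, 62.41 and 150.61 TPM in MCF-10A EV livers and at 29.35, 61.71 and 42.29 TPM in PBS livers. MCF-10A EV 3 was by far the highest library, MDA-MB-231 EV 1 the lowest, and the vesicle groups overlapped only in that MDA-MB-231 EV 2 was above MCF-10A EV 1. Group means were 30.4 ± 16.1 TPM with MDA-MB-231 EV, 86.8 ± 55.8 TPM with MCF-10A EV and 44.5 ± 16.3 TPM with PBS (SD, n = 3 each). Changes were computed on log2(TPM + 1), which understates those of low genes, and all log2 changes are given ± SE. The log2 change in MDA-MB-231 EV relative to MCF-10A EV was -1.42 ± 0.54 (95% interval -2.62 to -0.22), with an unadjusted limma p of 0.0249. Adjusted over all 12860 genes tested by the Benjamini-Hochberg method, the limma p was 1, also with the replicate number as a block. The difference therefore did not pass the test. Against PBS the log2 change was -0.59 ± 0.54 with MDA-MB-231 EV and 0.83 ± 0.54 with MCF-10A EV, and these comparisons share their PBS libraries.

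Hsp90ab1 (ENSMUSG00000023944, chr17:45567775-45573271), the constitutive HSP90, was at 294.96, 338.87 and 112.39 TPM in MDA-MB-231 EV livers, at 265.73, 154.90 and 160.00 TPM in MCF-10A EV livers and at 165.12, 228.76 and 161.23 TPM in PBS livers. The MDA-MB-231 EV group held both the highest and the lowest library, so it spanned the other groups completely. Its log2 change was 0.29 ± 0.49 in MDA-MB-231 EV relative to PBS (95% interval -0.79 to 1.38) and 0.26 ± 0.49 in MDA-MB-231 EV relative to MCF-10A EV. The value in MCF-10A EV relative to PBS was 0.04 ± 0.49. The level ratio of the inducible to the constitutive gene, Hsp90aa1 over Hsp90ab1, ran from 0.0653 in MDA-MB-231 EV 1 to 0.941 in MCF-10A EV 3.

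Hspa8 (ENSMUSG00000015656, chr9:40800984-40810087), the constitutive HSP70 that also uncoats clathrin vesicles, was the most abundant of the chaperones in every library. It was at 414.66, 835.22 and 291.32 TPM in MDA-MB-231 EV livers, at 519.87, 666.64 and 632.73 TPM in MCF-10A EV livers and at 376.82, 620.58 and 605.16 TPM in PBS livers. MDA-MB-231 EV again held the highest and the lowest library, while the MCF-10A EV libraries lay close together inside its range, and all groups overlapped. The log2 change was -0.16 ± 0.46 in MDA-MB-231 EV relative to PBS (95% interval -1.19 to 0.87) and -0.37 ± 0.46 in MDA-MB-231 EV relative to MCF-10A EV, beside 0.21 ± 0.46 in MCF-10A EV relative to PBS. Hspa8 made up 49.6% to 67.2% of the summed TPM of the 9 chaperones, and Hspa8 with Hsp90ab1 made up 73.3% to 86.4%.

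Hspa1a and Hspa1b, the classical inducible HSP70 genes, were low in all groups. They lie beside each other in GRCm38 at chr17:34969190-34972156 and chr17:34956436-34959238, each a single exon on the minus strand (ENSMUSG00000091971 and ENSMUSG00000090877). Hspa1b was at 1.11, 10.26 and 0.12 TPM in MDA-MB-231 EV livers, at 3.72, 3.29 and 6.55 TPM in MCF-10A EV livers and at 2.77, 10.16 and 1.99 TPM in PBS livers. The highest values were in MDA-MB-231 EV 2 and PBS 2, and the lowest was in MDA-MB-231 EV 3, so the groups overlapped. Hspa1a was at 0.77 and 4.02 TPM in MDA-MB-231 EV 1 and 2 and is listed at 0 in MDA-MB-231 EV 3. It was at 1.5, 0.37 and 0.29 TPM in MCF-10A EV livers and at 0.39, 3.22 and 0.33 TPM in PBS livers, so the same libraries stood out as for Hspa1b. The log2 change of Hspa1b was -0.75 ± 0.80 in MDA-MB-231 EV relative to PBS and -0.84 ± 0.80 in MDA-MB-231 EV relative to MCF-10A EV, beside 0.09 ± 0.80 in MCF-10A EV relative to PBS. For Hspa1a it was 0.06 ± 0.69 in MDA-MB-231 EV relative to PBS and 0.34 ± 0.69 in MDA-MB-231 EV relative to MCF-10A EV, beside -0.27 ± 0.69 in MCF-10A EV relative to PBS.

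Several members have near-identical copies, and reads from them could be split between genes by the authors' counting. Whether the counting used strand is not given, so overlapping reads of Dnaja1 and Smu1 cannot be told apart here. Of the 50-base stretches of Hspa1b transcripts, 62.3% also occur in other transcripts, and all of these occur in Hspa1a. The shares held elsewhere were 66.3% for Hspa1a, 58.5% for Hsp90aa1, 52.7% for Hspa8, 51.6% for Hspb1, 28.8% for Dnaja1, 4.49% for Hsp90ab1 and 0.441% for Dnajb1, and Hsph1 and Hsf1 shared none. For most members the copies themselves were listed at no more than 1.14 TPM. The exceptions were Gm10501, which reached 4.25 TPM beside Hspa1a and Hspa1b, Smu1, a gene on the opposite strand that overlaps Dnaja1 (9.81 to 25.7 TPM), and Gm15459, which holds 45.3% of the stretches of Hspa8. Gm15459 was at 243.85, 127.41 and 43.87 TPM in MDA-MB-231 EV livers, at 157.21, 24.03 and 47.44 TPM in MCF-10A EV livers and at 55.15, 84.32 and 26.64 TPM in PBS livers. Added to its copies, Hspa8 came to 659, 963 and 335 TPM with MDA-MB-231 EV, 677, 691 and 680 TPM with MCF-10A EV and 432, 705 and 632 TPM with PBS. In that sum the MCF-10A EV libraries were nearly equal, and the log2 change in MDA-MB-231 EV relative to PBS turned to 0.05. Hspa1a and Hspa1b summed with the genes that share their stretches came to 2.55, 14.43 and 3.11 TPM with MDA-MB-231 EV, 5.90, 5.42 and 9.5 TPM with MCF-10A EV and 7.60, 14.01 and 3.45 TPM with PBS. This sum takes in whole genes that share little, as Gm10501 and Hspa1l each hold 7.95% of the Hspa1a stretches. In MDA-MB-231 EV 3, Gm10501 gave 2.26 TPM and Gm20481 0.70 TPM, beside 0.12 TPM for Hspa1b and 0 for Hspa1a.

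**Figure D1:**
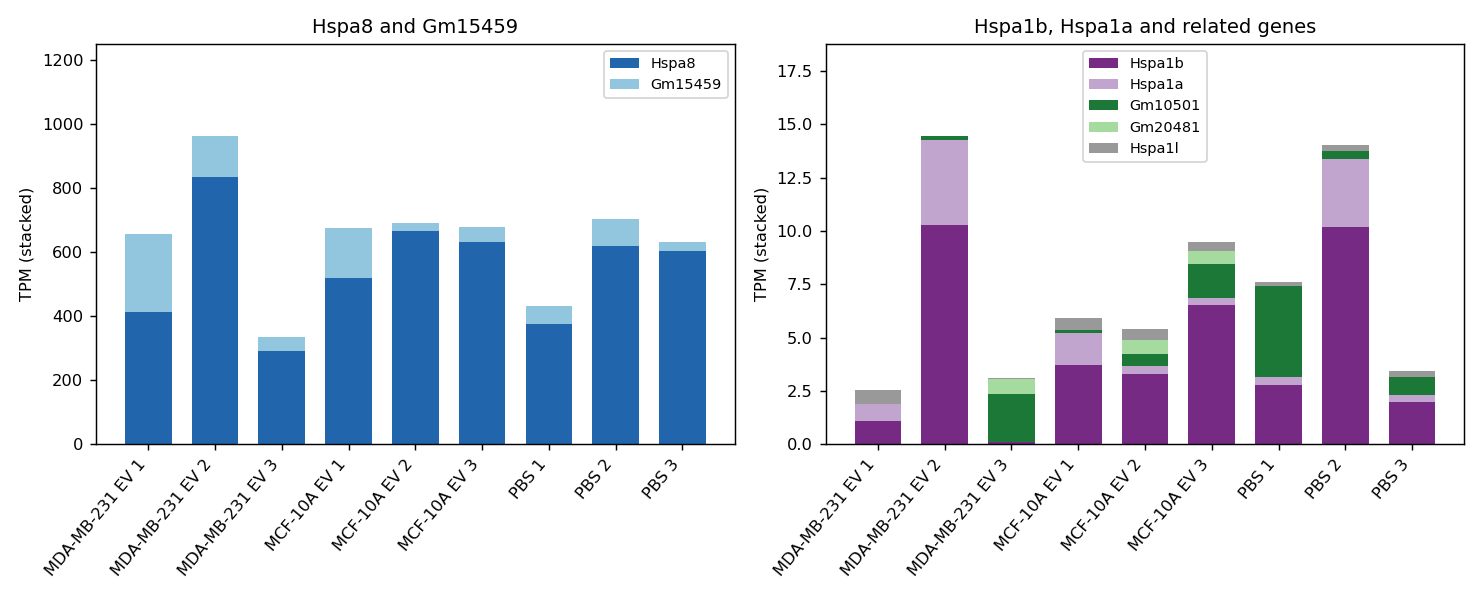
Stacked TPM (linear axis from 0) of Hspa8 with Gm15459 (left) and of Hspa1b, Hspa1a and related genes (right) in each of the 9 liver libraries. Gm15459 is largest in MDA-MB-231 EV 1, at 243.85 TPM, and Gm10501 makes up most of the right-hand column in PBS 1 and MDA-MB-231 EV 3, at 4.25 and 2.26 TPM.

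Hspb1 (ENSMUSG00000004951, chr5:135887919-135889563), the small heat shock protein HSP25 of the mouse, varied most between libraries of a group. It was at 6.92, 66.02 and 5.34 TPM in MDA-MB-231 EV livers, at 12.07, 46.52 and 52.31 TPM in MCF-10A EV livers and at 12.49, 92.74 and 27.13 TPM in PBS livers. Each group held both low and high libraries, and all 3 groups overlapped. The log2 change was -1.13 ± 0.99 in MDA-MB-231 EV relative to PBS (95% interval -3.32 to 1.05) and -1.10 ± 0.99 in MDA-MB-231 EV relative to MCF-10A EV, beside -0.03 ± 0.99 in MCF-10A EV relative to PBS. Hsph1 (ENSMUSG00000029657, chr5:149614287-149636376), the HSP110 that exchanges nucleotide on HSP70, was at 7.50, 22.55 and 4.40 TPM in MDA-MB-231 EV livers, at 15.02, 13.76 and 20.52 TPM in MCF-10A EV livers and at 21.17, 20.84 and 12.13 TPM in PBS livers. In MDA-MB-231 EV, libraries 1 and 3 were below every library of the other groups and library 2 was above them all. Its log2 change was -0.85 ± 0.53 in MDA-MB-231 EV relative to PBS and -0.75 ± 0.53 in MDA-MB-231 EV relative to MCF-10A EV, beside -0.11 ± 0.53 in MCF-10A EV relative to PBS. The lower values of Hspb1, Hsph1 and Hspa1b in MDA-MB-231 EV relative to PBS moved with single libraries. When MDA-MB-231 EV 2 was left out they came to -2.21, -1.45 and -1.70 (unadjusted limma p of 0.0286, 0.00828 and 0.0223, adjusted p of 0.848 each). At the other end, the value was -0.38 for Hspb1 without PBS 2, and without MDA-MB-231 EV 3 it was -0.39 for Hsph1 and -0.0398 for Hspa1b.

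The J-domain proteins, which stimulate the ATPase of HSP70, overlapped between all groups, with a within-group SD on the log2 scale of 0.72 for Dnaja1 and 0.53 for Dnajb1, beside 1.5 for Hspb1. Dnaja1 (ENSMUSG00000028410, chr4:40722150-40737149) was at 82.25, 90.81 and 26.35 TPM in MDA-MB-231 EV livers, at 93.31, 46.77 and 49.21 TPM in MCF-10A EV livers and at 36.00, 77.15 and 43.66 TPM in PBS livers. The overlap of all 3 groups was nearly complete. Its log2 change was 0.23 ± 0.55 in MDA-MB-231 EV relative to PBS and -0.04 ± 0.55 in MDA-MB-231 EV relative to MCF-10A EV, beside 0.27 ± 0.55 in MCF-10A EV relative to PBS. Dnajb1 (ENSMUSG00000005483, chr8:83608193-83612653) was at 9.18, 13.77 and 3.91 TPM in MDA-MB-231 EV livers, at 14.54, 8.97 and 9.47 TPM in MCF-10A EV livers and at 9.27, 8.82 and 6.40 TPM in PBS livers. Its highest library was MCF-10A EV 1 and its lowest MDA-MB-231 EV 3, and the groups overlapped. The log2 change was -0.01 ± 0.45 in MDA-MB-231 EV relative to PBS and -0.38 ± 0.45 in MDA-MB-231 EV relative to MCF-10A EV, beside 0.37 ± 0.45 in MCF-10A EV relative to PBS.

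Hsf1 (ENSMUSG00000022556, chr15:76477422-76501913), whose protein is controlled mainly after translation, was at 9.18, 8.15 and 38.10 TPM in MDA-MB-231 EV livers, at 9.76, 8.75 and 11.66 TPM in MCF-10A EV livers and at 19.39, 9.94 and 9.46 TPM in PBS livers. In 7 libraries it lay between 8.15 and 11.66 TPM, and MDA-MB-231 EV 3 and PBS 1, the libraries with high Xist, were above that range, so the groups overlapped. The log2 change was 0.21 ± 0.56 in MDA-MB-231 EV relative to PBS and 0.49 ± 0.56 in MDA-MB-231 EV relative to MCF-10A EV, beside -0.27 ± 0.56 in MCF-10A EV relative to PBS. Without both of those libraries it was -0.15 in MDA-MB-231 EV relative to PBS and -0.19 in MDA-MB-231 EV relative to MCF-10A EV, beside 0.04 in MCF-10A EV relative to PBS.

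**Figure D2:**
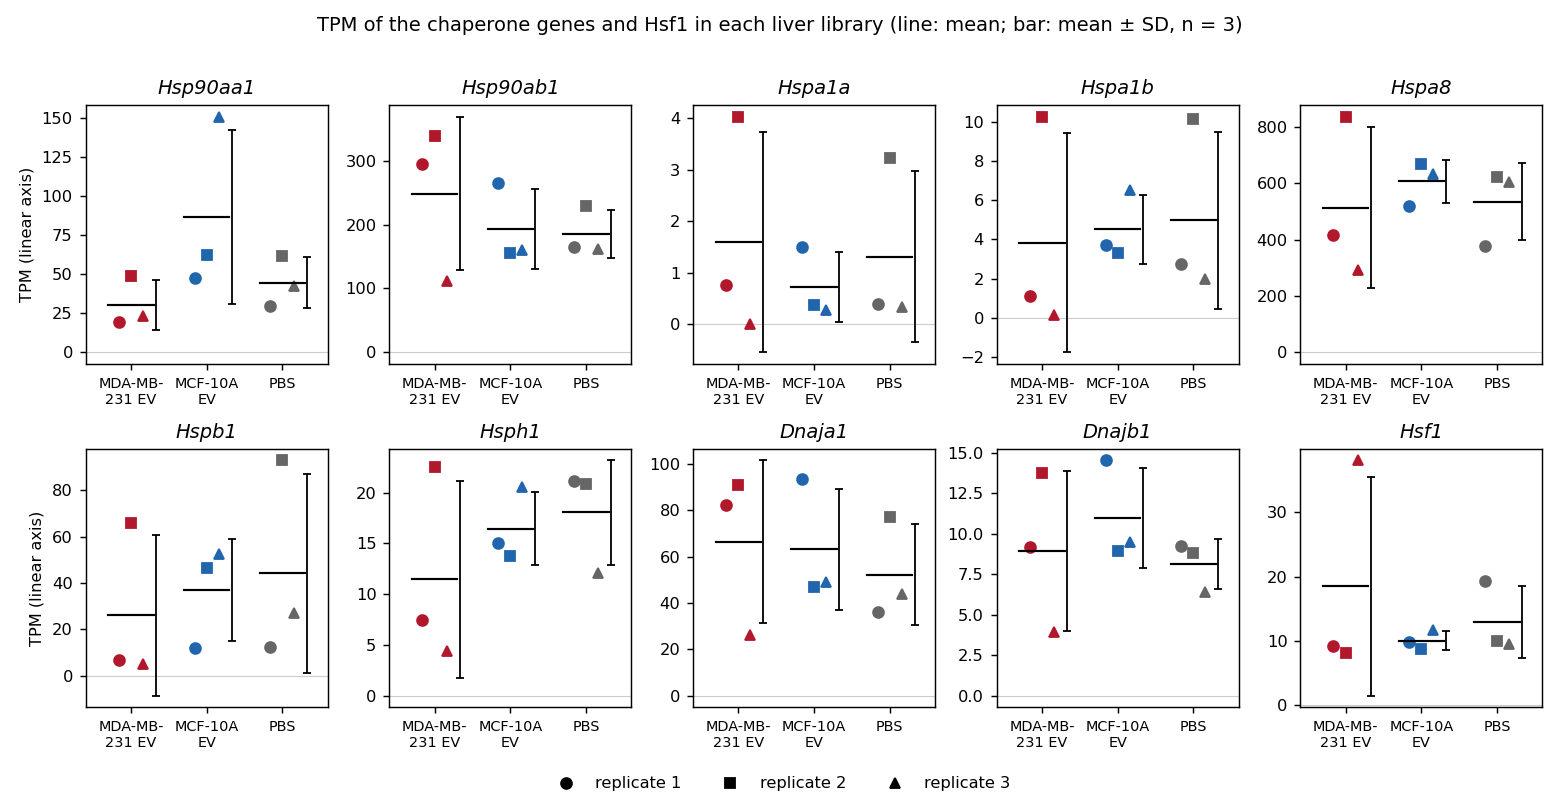
TPM (linear axes) of each of the 10 genes in the 9 liver libraries, with 1 point per library, the group mean as a line and mean ± SD as a bar (n = 3). The MDA-MB-231 EV points have the largest SD for 8 of the 10 genes, and for Hsf1 the MDA-MB-231 EV 3 library, at 38.10 TPM, lies far above the rest.

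None of the 10 genes passed limma at an adjusted p under 0.05 in any comparison, and for none did any pair of groups fail to overlap. In MDA-MB-231 EV relative to PBS, 0 of 12860 genes were called (0%) and 6.03% had groups that did not overlap. At an unadjusted limma p under 0.05 there were 199 genes and no member. In MDA-MB-231 EV relative to MCF-10A EV, 28 genes (0.218%) were called, 15 with the replicate number as a block, and 6.53% did not overlap. At the unadjusted threshold there were 492 genes, with Hsp90aa1 as the single member. In MCF-10A EV relative to PBS, 25 genes (0.194%) were called and 7.69% did not overlap, and the unadjusted threshold gave 411 genes and no member. The members' counts of 0 are thus near the background in the share called. All 10 members entered the test, with a mean of at least 1 TPM over the 9 libraries, though Hspa1a did so through MDA-MB-231 EV 2 and PBS 2, as its median was 0.39 TPM.

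In direction the members split, and 4 of 10 were above 0 in MDA-MB-231 EV relative to PBS, with a median log2 change of -0.08, beside 0.21 for all 12860 genes tested, of which 69.74% were above 0. Set against MCF-10A EV, 3 of 10 were above 0 with MDA-MB-231 EV and the median was -0.38, beside 0.17 for all genes and 65.05% of them above 0. In MCF-10A EV relative to PBS, 6 of 10 were above 0 and the median was 0.07, as for all genes, of which 56.78% were above 0. Single libraries moved these counts. Relative to PBS, 1 of 10 was above 0 with a median of -0.58 when MDA-MB-231 EV 2 was left out, and 5 of 10 with a median of 0.07 when MDA-MB-231 EV 3 was. Relative to MCF-10A EV, the median was -0.76 without MDA-MB-231 EV 2 and -0.0843 without MDA-MB-231 EV 3. For MCF-10A EV relative to PBS it was -0.0995 without PBS 3 and 0.38 without PBS 2. The highest group mean was in MDA-MB-231 EV for Hsp90ab1, Hspa1a, Dnaja1 and Hsf1, in the MCF-10A EV group for Hsp90aa1, Hspa8 and Dnajb1, and in PBS for Hspa1b, Hspb1 and Hsph1. No neighbours in any of these orders differed beyond their spread by the limma test. Of the 30 intervals (95%) of the members' log2 changes, 29 include 0 and all 30 reach past a change of 1 in at least 1 direction, so an adjusted p over the threshold does not show that the groups were alike.

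**Figure D3:**
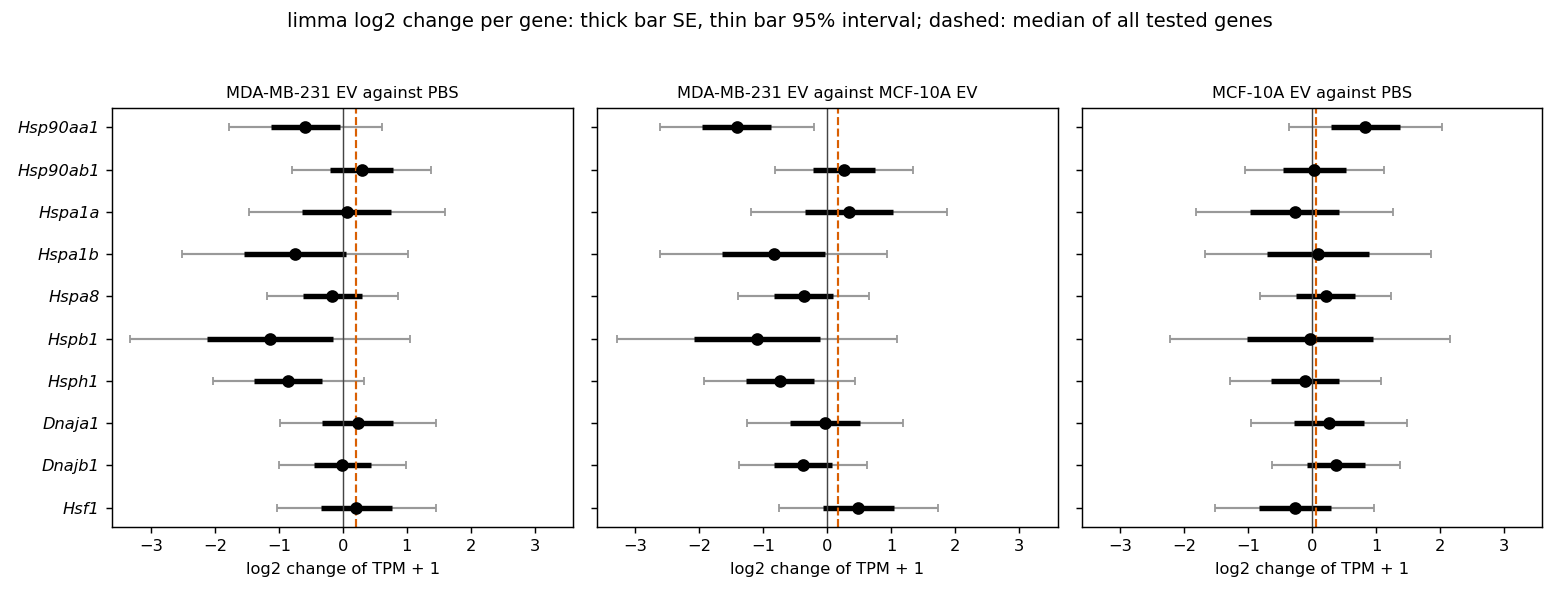
limma log2 change of TPM + 1 for each gene in the 3 comparisons, with SE (thick) and 95% interval (thin), and the median of all 12860 tested genes dashed. Every interval includes 0 except that of Hsp90aa1 in MDA-MB-231 EV relative to MCF-10A EV, which runs from -2.62 to -0.22.

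The summed level of the chaperones varied widely between libraries, most of all within the MDA-MB-231 EV group. The summed TPM of the 9 chaperones was 837, 1430 and 467 in MDA-MB-231 EV livers, 973, 1004 and 1082 in MCF-10A EV livers and 653, 1124 and 900 in PBS livers. The means were 911 ± 486 TPM with MDA-MB-231 EV, 1019 ± 56.0 TPM with MCF-10A EV and 893 ± 235 TPM with PBS (SD, n = 3 each). The extremes of the 9 libraries were thus both in the MDA-MB-231 EV group, and the MCF-10A EV libraries were the most alike. The MDA-MB-231 EV group held the lowest library for all 10 genes, Hsf1 included, and the highest for 6. The share of all tested genes with their lowest or highest library in that group was not computed. These counts are therefore not shown to be particular to the members.

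Averaged over the 9 chaperones on log2(TPM + 1) and set against the mean of all libraries, MDA-MB-231 EV 2 was at 0.86 and MDA-MB-231 EV 3 at -1.22. MDA-MB-231 EV 1 was at -0.44, the MCF-10A EV libraries were at 0.17, 0.07 and 0.39, and the PBS libraries were at -0.32, 0.70 and -0.22. In MDA-MB-231 EV 2 all 9 chaperones were above their own mean and 5 were at their highest, while in MDA-MB-231 EV 3 none was above and 8 were at their lowest. The median of all tested genes moved the other way in these libraries, to -0.24 in MDA-MB-231 EV 2 and 0.23 in MDA-MB-231 EV 3. On the same scale the endoplasmic reticulum chaperones described below averaged 0.71 in MDA-MB-231 EV 2 and -1.12 in MDA-MB-231 EV 3. The mitochondrial chaperones and proteases averaged 0.47 and -0.49 there, so the swing was not particular to the cytosolic chaperones. The cytosolic co-chaperones averaged 0.14 and -0.19, and the chaperonin and prefoldin subunits 0.09 and -0.20. The other HSP70 and small heat shock proteins averaged 0.13 and 0.17. Other measures moved with these libraries. The nuclear RNA Malat1 was at its lowest in MDA-MB-231 EV 2, at 5.66 TPM, and Neat1 was at 6 TPM there, against 227 TPM in MDA-MB-231 EV 3. Hepatocyte markers summed to 76892 TPM in MDA-MB-231 EV 2 and 40321 TPM in MDA-MB-231 EV 3. They were highest in MDA-MB-231 EV 1 (108800 TPM) and PBS 3 (97895 TPM), where the chaperones were at -0.44 and -0.22. Stellate cell markers (736 TPM, of which Ecm1 was 640) and sinusoidal endothelial markers (369 TPM) had their highest sums in MDA-MB-231 EV 3. Single markers differed, as Stab1, Stab2, Pdgfrb and Des were also highest there. Lrat, Reln, Dcn, Hgf, Lyve1, Clec4g, Kdr, Cdh5, Gpr182 and Oit3 were highest in MDA-MB-231 EV 1. The part of these measures in the chaperone levels was not tested. The median within-group SD on the log2 scale was 0.71 for the 10 genes and 0.63 for all genes tested.

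**Figure D4:**
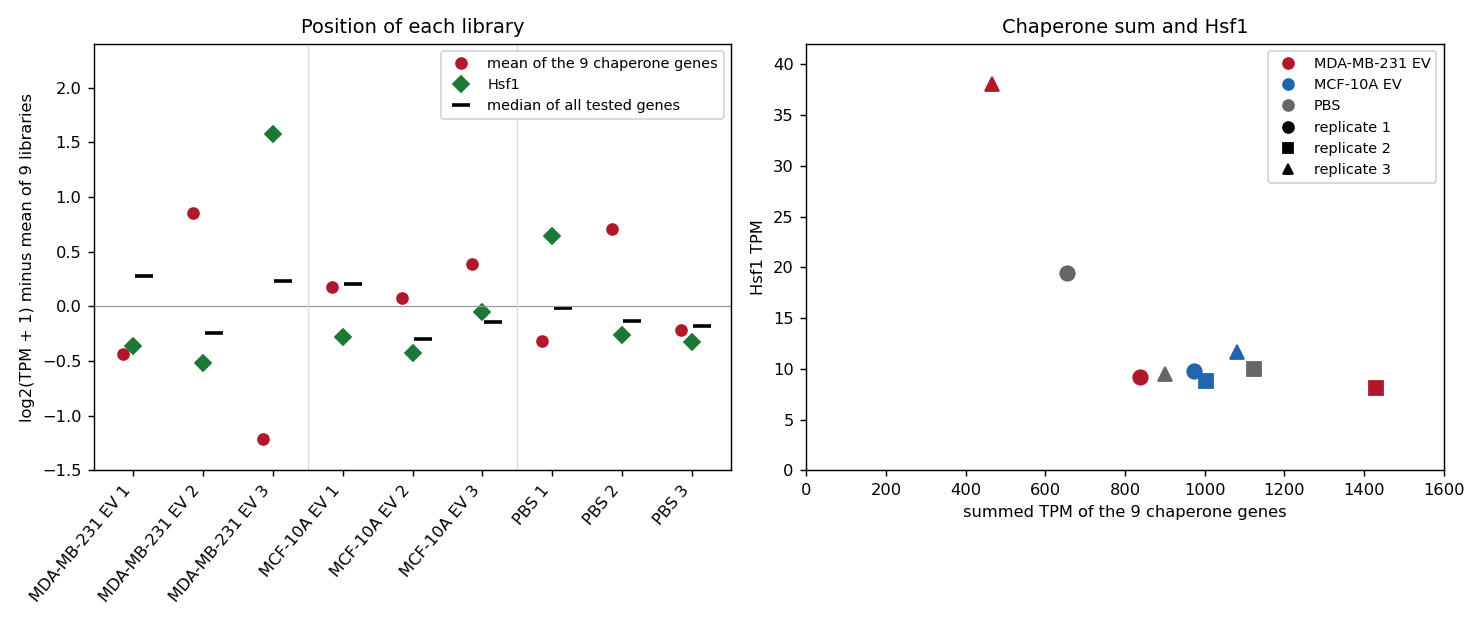
Left, the mean of the 9 chaperones, Hsf1 and the median of all tested genes in each library, as log2(TPM + 1) minus the mean of 9 libraries. Right, Hsf1 TPM against the summed TPM of the chaperones (linear axes), with MDA-MB-231 EV 3 at 467 and 38.10 TPM apart from the rest.

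The chaperones that were high in a library tended to be high together, in that 35 of 36 pairs had a positive Pearson correlation of log2(TPM + 1) over the 9 libraries (median 0.65, from -0.06 to 0.95). The closest pairs were Hsp90ab1 with Dnaja1 (0.95), Hspa1b with Hsph1 (0.91), and Hspb1 with Hspa1b and with Hspa8 (0.88 each). The exception was Hsp90aa1 with Hsp90ab1, at -0.06. As deviations from the group means, all 36 pairs were positive (median 0.70). Without MDA-MB-231 EV 3 and PBS 1, which left 7 libraries, 27 of 36 pairs were positive. The median was then 0.46 (from -0.56 to 0.96), so the relation rests in part on those libraries. The share of positive pairs among all tested genes was not computed, so the counts are not shown to be particular to the chaperones. Hsf1 correlated negatively with each of the 9 chaperones over 9 libraries (median -0.63, from -0.83 with Hspa8 to -0.39 with Hsp90aa1). Without MDA-MB-231 EV 3 and PBS 1 the negative sign held for 5 of the 9 (median -0.22, from -0.48 to 0.62), so that relation rests on those 2 libraries. All values are over the same libraries and share their TPM scale, and they are given as descriptions without a p.

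**Figure D5:**
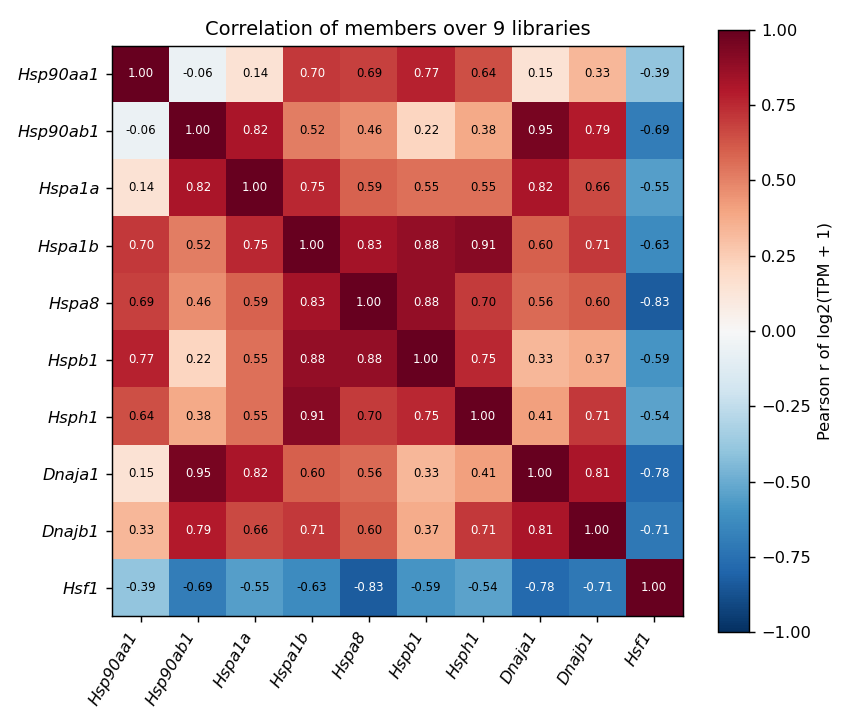
Pearson r of log2(TPM + 1) between the 10 genes over the 9 libraries, from blue (-1) to red (1). The chaperone block is red except for Hsp90aa1 with Hsp90ab1 (-0.06), and the Hsf1 row and column are blue, from -0.83 to -0.39.

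Among 7089 other genes that averaged 5 TPM or more, the pattern most like the mean of the 10 genes was that of Cct3, a subunit of the cytosolic chaperonin, with a Pearson r of 0.89 over the 9 libraries. Cct3 was at 41.85, 90.57 and 30.81 TPM in MDA-MB-231 EV livers, at 72.93, 74.74 and 90.46 TPM in MCF-10A EV livers and at 34.68, 95.03 and 65.53 TPM in PBS livers. Its lowest library was MDA-MB-231 EV 3, as it was for the mean of the 10 genes. Next came Hras (0.87), Actr10 (0.87), the major urinary protein gene Mup10 (0.87), the thyroid hormone deiodinase Dio1 (0.86) and Mup22 (0.86). Mup10 ranged from 0.34 TPM in MDA-MB-231 EV 1 to 1029 TPM in MDA-MB-231 EV 2, and its family has near-identical copies.

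Other genes of protein folding were described from lists of names. No gene of any of the 10 lists was called in any comparison, beside 0%, 0.218% and 0.194% of all genes tested, in the order given above. At an unadjusted limma p under 0.05 the lists held only Lonp1 and Osgin1, in both comparisons of MDA-MB-231 EV. The genes named next had the smallest p of their list in a comparison, with means ± SD (n = 3) and an adjusted limma p of 1 each. Of the cytosolic co-chaperones, 21 of 22 were tested, and their medians were 0.06 in MDA-MB-231 EV relative to PBS (14 above 0) and -0.01 in MDA-MB-231 EV relative to MCF-10A EV (9 above 0), beside 0.11 in MCF-10A EV relative to PBS (14 above 0). Without 1 library these medians ran from 0.00132 to 0.20, from -0.25 to 0.0593 and from -0.0133 to 0.20. The smallest p in the first comparison was that of Cdc37, which brings kinases to HSP90, with 35.2 ± 24.9 TPM in MDA-MB-231 EV livers and 12.1 ± 6.90 TPM in PBS livers (log2 change 1.29 ± 0.81). Dnajb6, a J-domain protein, had 46.2 ± 14.6 TPM in MDA-MB-231 EV livers and 25.8 ± 12.3 TPM in MCF-10A EV livers (0.86 ± 0.45). Cacybp, a CS domain protein, had 17.3 ± 1.98 TPM in MCF-10A EV livers and 11.6 ± 5.03 TPM in PBS livers (0.62 ± 0.42). Of the 21 tested, 0, 2 and 1 did not overlap in the 3 comparisons, beside 6.03%, 6.53% and 7.69% of all genes tested. Cacybp was 1 of the 2, at 10.83, 12.59 and 7.10 TPM in MDA-MB-231 EV livers and 19.39, 15.49 and 16.87 TPM in MCF-10A EV livers.

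Of the other HSP70 and small heat shock proteins, 8 of 11 were tested, with 5, 4 and 4 above 0 in the 3 comparisons in the same order. Their medians were 0.30, 0.02 and 0.08, and without 1 library they ran from 0.12 to 0.45, from -0.12 to 0.18 and from -0.10 to 0.24. Cryab, a small heat shock protein related to Hspb1, was at 3.14, 5.12 and 5.77 TPM in MDA-MB-231 EV livers, at 7.25, 7.63 and 6.28 TPM in MCF-10A EV livers and at 8.31, 11.63 and 6.29 TPM in PBS livers. Every MDA-MB-231 EV library was below every library of the other groups, for 1 of the 8 genes tested. Of all genes tested, 6.03% did not overlap against PBS and 6.53% against MCF-10A EV. The log2 change of Cryab was -0.77 ± 0.37 against PBS and -0.53 ± 0.37 against MCF-10A EV. Hspb11 had 9 ± 1.79 TPM in MCF-10A EV livers and 5.83 ± 1.68 TPM in PBS livers (0.57 ± 0.35). Of the 4 tested partners of Hsf1 in the list of HSF factors and regulators, Hsbp1, which binds the HSF1 trimer, had 60.4 ± 19.0 TPM with MDA-MB-231 EV, 91.2 ± 43.6 TPM with MCF-10A EV and 58.5 ± 28.1 TPM with PBS. Hsbp1l1 had 1.21 ± 0.685 TPM in MDA-MB-231 EV livers and 2.45 ± 0.941 TPM in PBS livers (-0.66 ± 0.44). Of these 4 genes, 1 did not overlap in MCF-10A EV relative to PBS, beside 7.69% of all genes tested.

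All 14 chaperonin and prefoldin subunits, which fold actin and tubulin, were tested, and 7, 6 and 10 were above 0 with medians of 0.03, -0.27 and 0.07. Without PBS 1 the median was -0.25 in MDA-MB-231 EV relative to PBS and -0.0844 in MCF-10A EV relative to PBS, and without MCF-10A EV 1 it was 0.12 in MDA-MB-231 EV relative to MCF-10A EV. The value for Cct3 in MDA-MB-231 EV relative to MCF-10A EV was -0.68 ± 0.50. Cct5 had 49.4 ± 29.3 TPM in MDA-MB-231 EV livers and 26.6 ± 13.5 TPM in PBS livers, and Cct6a had 24.6 ± 22.4 TPM in MCF-10A EV livers and 10.2 ± 3.05 TPM in PBS livers. The 14 endoplasmic reticulum chaperones had medians of 0.33, -0.05 and 0.42, with 12, 6 and 12 above 0, and these rested on single libraries. The median in MDA-MB-231 EV relative to PBS was -0.20 with 3 above 0 without PBS 1, -0.0362 without MDA-MB-231 EV 1 and 0.78 with 14 above 0 without MDA-MB-231 EV 3. It ran in MDA-MB-231 EV relative to MCF-10A EV from -0.33 without MCF-10A EV 3 to 0.60 without MDA-MB-231 EV 3. The median in MCF-10A EV relative to PBS was -0.0821 with 5 above 0 without MCF-10A EV 1 and -0.00757 with 7 above 0 without PBS 1. Canx, a lectin chaperone, had 69.2 ± 60.4 TPM in MDA-MB-231 EV livers and 24.3 ± 13.3 TPM in PBS livers (1.11 ± 0.84). Calr, its soluble counterpart, had 301 ± 163 TPM in MDA-MB-231 EV livers and 411 ± 124 TPM in MCF-10A EV livers (-0.62 ± 0.57). Hsp90b1, the HSP90 of the endoplasmic reticulum, had 206 ± 54.9 TPM in MCF-10A EV livers and 146 ± 79.4 TPM in PBS livers (0.66 ± 0.58). The 9 mitochondrial chaperones and proteases had medians of 0.75, 0.35 and 0.30, with 8 above 0 each time. Without PBS 1, the library with a mitochondrially encoded share of 26.3%, the median was 0.19 in MDA-MB-231 EV relative to PBS, and in MCF-10A EV relative to PBS it was -0.11 with 1 of 9 above 0. It was 0.24 in MDA-MB-231 EV relative to PBS and 0.0102 in MDA-MB-231 EV relative to MCF-10A EV without MDA-MB-231 EV 1, and 0.000736 in MCF-10A EV relative to PBS without MCF-10A EV 1. Lonp1, a protease of the mitochondrial matrix, was at 70.43, 35.88 and 36.25 TPM in MDA-MB-231 EV livers, at 30.81, 22.83 and 17.14 TPM in MCF-10A EV livers and at 20.06, 27.94 and 21.51 TPM in PBS livers. Each MDA-MB-231 EV library was above all others, with log2 changes of 0.95 ± 0.41 against PBS and 0.95 ± 0.41 against MCF-10A EV. In this list 2 of 9 genes did not overlap against PBS and 1 against MCF-10A EV, beside 6.03% and 6.53% of all genes tested. Clpx, another matrix protease subunit, had 16.2 ± 11.5 TPM in MCF-10A EV livers and 10.2 ± 1.18 TPM in PBS livers (0.42 ± 0.50).

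Lists of other responses were described in the same way, and single libraries moved them as well. The cold-inducible RNA-binding proteins Rbm3 and Cirbp were both above 0 in all 3 comparisons (medians 1.22, 0.78 and 0.45), with Rbm3 at 108.54, 49.44 and 56.47 TPM in MDA-MB-231 EV livers, 142.88, 24.60 and 29.66 TPM in MCF-10A EV livers and 12.67, 65.91 and 22.71 TPM in PBS livers. The highest Rbm3 library was MCF-10A EV 1 and the lowest PBS 1, and without MCF-10A EV 1 the median in MCF-10A EV relative to PBS was -0.18. Cirbp had 28.6 ± 21.6 TPM in MDA-MB-231 EV livers and 11.1 ± 7.30 TPM in MCF-10A EV livers (1.05 ± 0.68). Of 12 immediate early genes, 10, 8 and 11 were above 0 (medians 0.53, 0.13 and 0.37). Without MCF-10A EV 1, the library with 5436 TPM of neutrophil markers, 5 of 12 were above 0 in MCF-10A EV relative to PBS (median -0.16), and all 12 in MDA-MB-231 EV relative to MCF-10A EV (median 0.61). Without MCF-10A EV 2, 3 of 12 were above 0 in MDA-MB-231 EV relative to MCF-10A EV (median -0.21). Junb had 26.8 ± 17.1 TPM with MDA-MB-231 EV, 28.8 ± 21.5 TPM with MCF-10A EV and 13.8 ± 6.44 TPM with PBS, and Egr1 had 2.95 ± 1.69 TPM with MDA-MB-231 EV and 1.71 ± 1.42 TPM with MCF-10A EV. Of 13 clock genes, 8, 10 and 7 were above 0 (medians 0.18, 0.32 and 0.0027). Without 1 library the clock medians ran from -0.10 to 0.66, from -0.0439 to 0.77 and from -0.30 to 0.0818. Cry2, a clock repressor, had 11.7 ± 9.67 TPM with MDA-MB-231 EV, 5 ± 1.3 TPM with MCF-10A EV and 5.05 ± 1.23 TPM with PBS, and Ciart had 16.7 ± 3.35 TPM with MCF-10A EV and 27.4 ± 8.26 TPM with PBS. The 9 NRF2 targets, genes of the oxidative stress response, had medians of 0.78, 0.40 and 0.38 with 9, 8 and 8 above 0, beside 69.74%, 65.05% and 56.78% of all genes tested. Without MDA-MB-231 EV 1 the medians were 0.43 relative to PBS (7 above 0) and -0.12 relative to MCF-10A EV (3 above 0), and without MCF-10A EV 1 the median in MCF-10A EV relative to PBS was 0.12. Osgin1 had 75.5 ± 19.6 TPM with MDA-MB-231 EV, 36.7 ± 4 TPM with MCF-10A EV and 27.7 ± 5.39 TPM with PBS, and none of the groups overlapped. Of the 9 targets, 4, 1 and 1 did not overlap in the 3 comparisons, beside 6.03%, 6.53% and 7.69% of all genes tested. The log2 change of Osgin1 in MDA-MB-231 EV relative to PBS was 1.40 ± 0.36, with an unadjusted limma p of 0.00285 and an adjusted p of 1. The part of these genes in the chaperone levels was not tested.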

How the data were processed

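RNA libraries were made from 1 µg of total RNA with the TruSeq RNA kit, per the labels' protocols; the sources used here do not give strandedness. HISAT2, StringTie and RSEM and the build GRCm39 are named in the submitters' processing notes, without versions or order. The values deposited by the authors are TPM per gene and library, used as deposited; TPM keeps no depth, so no counting interval can be given. Of 61473 features, 6059 assembled loci, at 0 in all MCF-10A EV libraries, were left out, and 55414 Ensembl features were kept.

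The limma 3.58.1 fit (R 4.3.3) used log2(TPM + 1) over all 9 libraries with a trended prior, for 12860 features with a mean of at least 1 TPM. The Benjamini-Hochberg adjustment was made per comparison over all of them, and an adjusted p under 0.05 was called. The procedure was run on simulated data in which genes varied independently. That setting lacks the deviations shared by many genes of a library seen here, so it cannot show how the fit handles them. Groups were taken from the sample titles. Sequences shared between transcripts were counted as 50-base stretches in GENCODE M21 transcripts, either strand. The 20 alternatives per comparison include members summed with every gene sharing at least 5% of their stretches, whether or not it is a copy. That alternative was chosen after seeing the data, as were the list medians without 1 library (differences of group means over the same genes).

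The members, gene lists and tests were chosen with earlier results of these data known. All 10 members are named, with the gene of smallest p per list and comparison, and the 6 genes most like the members' mean. Same-numbered MDA-MB-231 EV and MCF-10A EV libraries had positive correlations of their deviations from the group means over genes (0.336, 0.110 and 0.436). This did not single out every pair, as MDA-MB-231 EV 2 correlated at 0.116 with MCF-10A EV 1. The labels give no pairing. The main fit used group means without pairs, and the replicate number entered as a block in an alternative fit only.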

Additional observations from a re-analysis of the deposited data

How the results depend on the processing

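No member was called by limma under any of the 20 alternatives of each comparison. Of 588 alternative log2 changes of members, 531 kept their direction and 57 turned, and 11 of 30 member values never turned. The lowest adjusted limma p of any member was 0.0685, for Hsp90aa1 in MCF-10A EV relative to PBS with array weights (log2 change 1.25 ± 0.34), which called 548 genes there and 46 in MDA-MB-231 EV relative to MCF-10A EV. Hsp90aa1 kept its direction throughout, with leave-one-out ranges of -0.98 to -0.32 in MDA-MB-231 EV relative to PBS, -1.81 to -0.93 in MDA-MB-231 EV relative to MCF-10A EV and 0.35 to 1.17 in MCF-10A EV relative to PBS.

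Genes called ranged, leaving out 1 library, from 0 to 24 in MDA-MB-231 EV relative to PBS (24 without PBS 1, 5 without MDA-MB-231 EV 3), from 13 (without MCF-10A EV 3) to 31 in MDA-MB-231 EV relative to MCF-10A EV and from 14 (without MCF-10A EV 3) to 59 (without MDA-MB-231 EV 3) in MCF-10A EV relative to PBS. Without PBS 1 and MDA-MB-231 EV 3 together they were 28, 36 and 85 in that order. MDA-MB-231 EV relative to MCF-10A EV gave 11 with no filter, 17 with a filter of 5 TPM, 17 with only the groups compared and 15 with the replicate block. MCF-10A EV relative to PBS gave 12 with no filter, 40 with a pseudocount of 0.1 and 66 with only the groups compared. With the replicate block it gave 20, and MDA-MB-231 EV relative to PBS gave 0. In these comparisons most same-numbered libraries did not deviate together (-0.284, 0.500 and -0.389 with MDA-MB-231 EV, -0.206, -0.090 and -0.158 with MCF-10A EV). The block called no member.

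These log2 changes turned in MDA-MB-231 EV relative to PBS: Hspa1a to -0.32 with a pseudocount of 0.1, -0.018 without mitochondrially encoded genes and -0.45 summed with copies, Dnaja1 to -0.0686 and Hsf1 to -0.0124 with quantile normalization, Hspa1b to 0.0198 and Dnajb1 to 0.41 with array weights, Dnajb1 to 0.52 and Hsf1 to -0.15 without PBS 1 and MDA-MB-231 EV 3, and Hspa8 to 0.0477 summed with copies. In MDA-MB-231 EV relative to MCF-10A EV, Dnaja1 turned to 0.48 with array weights, 0.52 without both libraries and 0.062 summed, Dnajb1 to 0.0616 and Hsf1 to -0.19 without both, and Hspa1a to -0.35 summed. The sum for Dnaja1 takes in Smu1, the overlapping gene on the opposite strand, and that for Hspa1a takes in Hspa1b and Gm10501. In MCF-10A EV relative to PBS, Hsp90ab1 turned to -0.073 without mitochondrially encoded genes, -0.0233 with quantile normalization, -0.0567 with array weights and -0.0347 without both. Hspb1 turned to 0.58, Hsph1 to 0.38 and Hsf1 to 0.0897 with array weights, Hspa1b to -0.11, Hspa8 to -0.0232, Hsph1 to 0.0225 and Hsf1 to 0.0392 without both, and Hspa1b to -0.10 summed. The cause was not tested.

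The values of Hspb1, Hspa1b and Hsph1 in MDA-MB-231 EV relative to MCF-10A EV stayed below 0 but ran from -2.18 to -0.48, -1.80 to -0.13 and -1.34 to -0.28, lowest without MDA-MB-231 EV 2 and highest without MDA-MB-231 EV 3. Leave-one-out ranges crossed 0 for these log2 changes. In MDA-MB-231 EV relative to PBS they were -0.0035 to 0.79 for Hsp90ab1, -0.23 to 0.59 for Hspa1a, -0.58 to 0.18 for Hspa8, -0.0831 to 0.79 for Dnaja1, -0.36 to 0.43 for Dnajb1 and -0.46 to 0.59 for Hsf1. In MDA-MB-231 EV relative to MCF-10A EV they were -0.041 to 0.75 for Hsp90ab1, -0.35 to 0.52 for Dnaja1, -0.73 to 0.0616 for Dnajb1 and -0.19 to 0.86 for Hsf1. In MCF-10A EV relative to PBS they were -0.21 to 0.20 for Hsp90ab1, -0.28 to 0.67 for Hspa1b, -0.0232 to 0.34 for Hspa8, -0.68 to 0.72 for Hspb1, -0.36 to 0.0225 for Hsph1, -0.0455 to 0.58 for Dnaja1 and -0.44 to 0.0392 for Hsf1. Leaving out MDA-MB-231 EV 3 turned 6 of these (Hspa8 relative to PBS, Dnaja1 relative to MCF-10A EV, and Dnajb1 and Hsf1 in both comparisons). Hspa1a gave no value in some leave-one-out fits, and Hspa1a and Hspa1b gave none with a filter of 5 TPM, being under the filter. TPM keeps no depth, so precision is limited by the number of libraries.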
